A study of Mus musculus with 9 samples.

Results

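The brains of diabetic mice were compared with those of control mice by pooling the 6 whole-brain RNA-seq libraries of both diabetic groups, with or without baclofen, against the 3 control libraries. All 9 libraries of the series enter this comparison. Of the 53465 genes listed, 18501 held enough counts to be tested. All 6 diabetic libraries lay above all 3 control libraries for 706 of them (3.82% of the genes tested) and below all 3 for 579 (3.13%). These 1285 genes without overlap are described here, and because they were chosen on this contrast their separation is a description and not a test.

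The mice were male C57BL/6, 7 weeks old at the start. DNP mice (diabetic neuropathic pain) and BAC mice ate a diet with 60% fat over 4 weeks and then received streptozotocin at 50 mg/kg daily over 7 days. BAC mice were further given baclofen at 8 mg/kg over 7 days, whereas CON and DNP mice were given saline. Diet, streptozotocin and the diabetic state were therefore always present together, and their shares in any difference cannot be told apart. Each group had 3 biological replicates, with a library for each.

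Streptozotocin is taken up by pancreatic beta cells through a glucose transporter and kills them, so that insulin falls and blood glucose rises. After a high-fat diet this gives a diabetic state with both insulin resistance and insulin loss. The brain depends on blood glucose, and its glia, vessels and synapses all respond to metabolic and hormonal state. In bulk tissue, fewer cells of a type and less RNA per cell cannot be told apart, and blood left in the vessels adds its own RNA.

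The libraries held 13107382 to 16008129 counts. Values below are TMM-normalised CPM, that is, counts scaled to library size with the composition factor of edgeR. Mitochondrial genes took 4.34% to 5.36% of the counts in CON and 5.94% to 7.23% in the diabetic libraries. Brain regions were unequally represented although every sample is labelled whole brain. The summed level of 23 brainstem and spinal cord markers was 1034 CPM or more in DNP replicate 1 and BAC replicates 1 and 3, with none of the markers at 0, but at most 156 CPM in the other 6 libraries, where 13 to 16 markers were at 0. The summed level of 20 cerebellar markers reached 13405 CPM in CON replicate 2 and 6657 CPM in BAC replicate 1, against 798 to 3377 CPM elsewhere. For 20 markers of thalamus, hypothalamus and midbrain the summed level overlapped, at 407 to 882 CPM in CON and 472 to 1086 CPM in the diabetic libraries. Their mean log2 deviation from the mean of the 9 libraries did not overlap. It was -0.992 to -0.622 in CON and -0.0543 to 1.40 in the diabetic libraries, so region content also differed along the contrast itself. What region content contributes to the results was not tested beyond 2 steps. These were leaving out the libraries rich in brainstem or cerebellar markers and adding the scores of those markers to the fit.

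**Figure D1:**
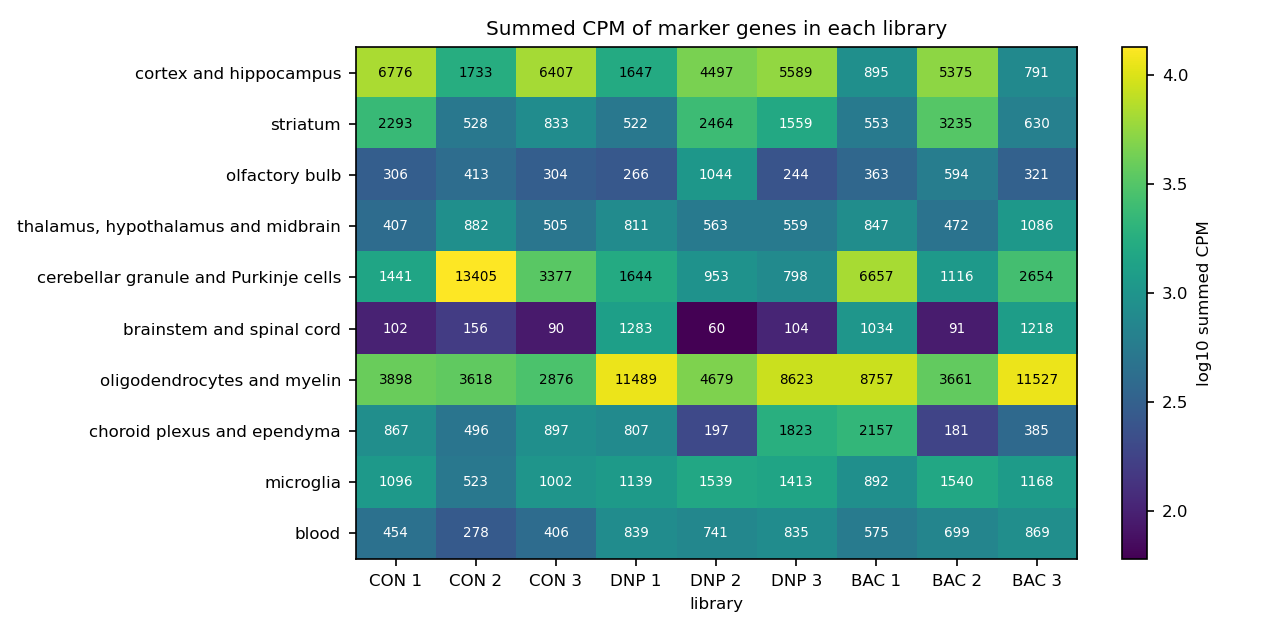
Summed TMM-normalised CPM of marker genes for regions and cell types (rows) in each of the 9 libraries (columns), with the value printed in each cell and the colour on a log10 scale. Brainstem and spinal cord markers sit at 1034 CPM or more in DNP 1, BAC 1 and BAC 3 and at 156 CPM or less elsewhere, whereas blood markers are between 575 and 869 CPM in the diabetic libraries and between 278 and 454 CPM in the controls.

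In the fit across all genes, no gene was called (0%) by the quasi-likelihood test of edgeR at a Benjamini-Hochberg adjusted p under 0.05, and the smallest adjusted p was 0.0879. At an unadjusted p under 0.05 the same test gave 1339 higher genes (7.24%) and 960 lower genes (5.19%). DESeq2, run as an alternative, called 255 genes higher (1.38%) and 171 lower (0.924%), and 366 of these 426 were among the genes without overlap. Of those genes, 620 of the 706 higher and 476 of the 579 lower had an unadjusted p under 0.05 in edgeR, on the contrast that chose them. The direction of the list depended on scaling, since 54.9% of the genes without overlap were higher with TMM but 73.8% with library totals alone and 73.7% in the deposited FPKM.

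Most separations were narrow. The nearest diabetic and nearest control library were a median 1.07-fold apart for the higher genes and 1.06-fold for the lower genes, and only 142 higher and 55 lower genes had a gap of at least 1.2-fold. Just inside the rule lay Chchd2, at 142.88 CPM in the lowest diabetic and 142.87 CPM in the highest control library. Just outside it lay Coq7, at 22.809 CPM and 22.810 CPM. On the lower side the same position was held by Ankle2 (37.4093 CPM against 37.4094 CPM, inside) and Dhx37 (26.3373 CPM against 26.337 CPM, outside).

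Hemoglobin genes were the leading higher genes. The globins Hba-a1 and Hba-a2 encode the alpha chain and Hbb-bs and Hbb-bt the beta chain of adult hemoglobin. They are made in red cell precursors, and small amounts have also been described in neurons and glia. The 250 bases upstream of the annotated start of each of the 4 genes are shown because the genes separated the groups together. The sequences are from RefSeq (GRCm38.p6), in the direction of transcription, with 4 motifs in capitals, searched on both strands, namely the CCAAT box, the CACCC box, the core GATAA of the site of GATA factors and ATATAA as a TATA box. Where CCAAT lies against its reverse complement, the capitals run together. Hba-a1 is at chr11:32283422-32283671 (+), Hba-a2 at chr11:32296242-32296491 (+), Hbb-bs at chr7:103827929-103828178 (-) and Hbb-bt at chr7:103813924-103814173 (-).
Hba-a1: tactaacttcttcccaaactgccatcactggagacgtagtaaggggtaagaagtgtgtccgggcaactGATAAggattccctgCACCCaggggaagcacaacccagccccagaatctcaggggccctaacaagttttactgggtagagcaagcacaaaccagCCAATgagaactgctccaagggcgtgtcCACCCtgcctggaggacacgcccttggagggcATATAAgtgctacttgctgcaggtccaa
Hba-a2: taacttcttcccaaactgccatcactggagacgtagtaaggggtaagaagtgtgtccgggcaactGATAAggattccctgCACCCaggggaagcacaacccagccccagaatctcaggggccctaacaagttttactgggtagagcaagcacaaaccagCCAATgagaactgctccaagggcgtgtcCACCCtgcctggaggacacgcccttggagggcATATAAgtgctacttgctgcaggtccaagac
Hbb-bs: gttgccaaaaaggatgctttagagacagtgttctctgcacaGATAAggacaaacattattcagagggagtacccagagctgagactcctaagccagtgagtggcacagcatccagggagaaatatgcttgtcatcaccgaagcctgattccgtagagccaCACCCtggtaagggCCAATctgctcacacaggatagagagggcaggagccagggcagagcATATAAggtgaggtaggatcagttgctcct
Hbb-bt: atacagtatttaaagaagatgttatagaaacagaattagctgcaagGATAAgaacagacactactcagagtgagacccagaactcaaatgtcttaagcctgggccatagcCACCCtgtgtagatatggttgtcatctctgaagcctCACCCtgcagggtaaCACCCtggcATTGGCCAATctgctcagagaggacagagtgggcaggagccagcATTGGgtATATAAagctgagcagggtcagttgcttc

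All 4 globin windows hold all 4 motifs. Among 32851 upstream windows of the same length, 33.8% hold CCAAT, 52.0% CACCC, 22.6% GATAA and 9.1% ATATAA, and 0.466% hold all 4. A match describes the letters and not a bound factor. The Hba-a1 and Hba-a2 windows are the same sequence over 247 of 250 bases, shifted by 3. Of the 100-base words of the Hba-a1 transcript, 56.5% also occur in Hba-a2, and 62.6% of those of Hbb-bs occur in Hbb-bt, so the division of counts within each pair is uncertain.

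Hbb-bs was at 39.1, 32.2 and 28.0 CPM in CON and between 82.7 and 143 CPM in the diabetic libraries, with a median of 102 CPM. The lowest diabetic library, BAC replicate 2, was still 2.12-fold above the highest control. The log2 fold change was 1.69 ± 0.21 (SE) with an adjusted p of 0.0879 in edgeR and 2.27e-10 in DESeq2. Hba-a1 was at 104, 92.7 and 103 CPM in CON and at 199 to 351 CPM in the diabetic libraries (median 248 CPM). Hba-a2 was at 13.6 to 18.0 CPM in CON against 33.8 to 55.3 CPM, and Hbb-bt at 46.6 to 61.1 CPM against 118 to 198 CPM. No library of either group crossed into the other for these globins. Their log2 fold changes were 1.38 ± 0.19, 1.47 ± 0.19 and 1.52 ± 0.21 (SE). In DNP and BAC separately, each against CON, Hbb-bs differed by 1.80 ± 0.23 and 1.58 ± 0.23 on the log2 scale and Hba-a1 by 1.38 ± 0.22 in both.

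Alas2, the first enzyme of heme synthesis in red cell precursors, and Bpgm, which makes the red cell metabolite that lowers the oxygen affinity of hemoglobin, also separated. With the globins they were 6 of the 12 blood markers tested, against 3.82% of all genes, and none was lower. The median log2 fold change of the blood list was 1.55, beside -0.00284 over all genes tested. Again 6 of 12 separated when the dependence on gene length was removed, beside 2.97% of all genes under that setting. In the 6 libraries poor in brainstem markers 7 of 12 were higher without overlap, beside 11.5% of all genes, since fewer libraries separate more often. How much blood each brain retained is not recorded in the labels, and its part was not tested.

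**Figure D2:**
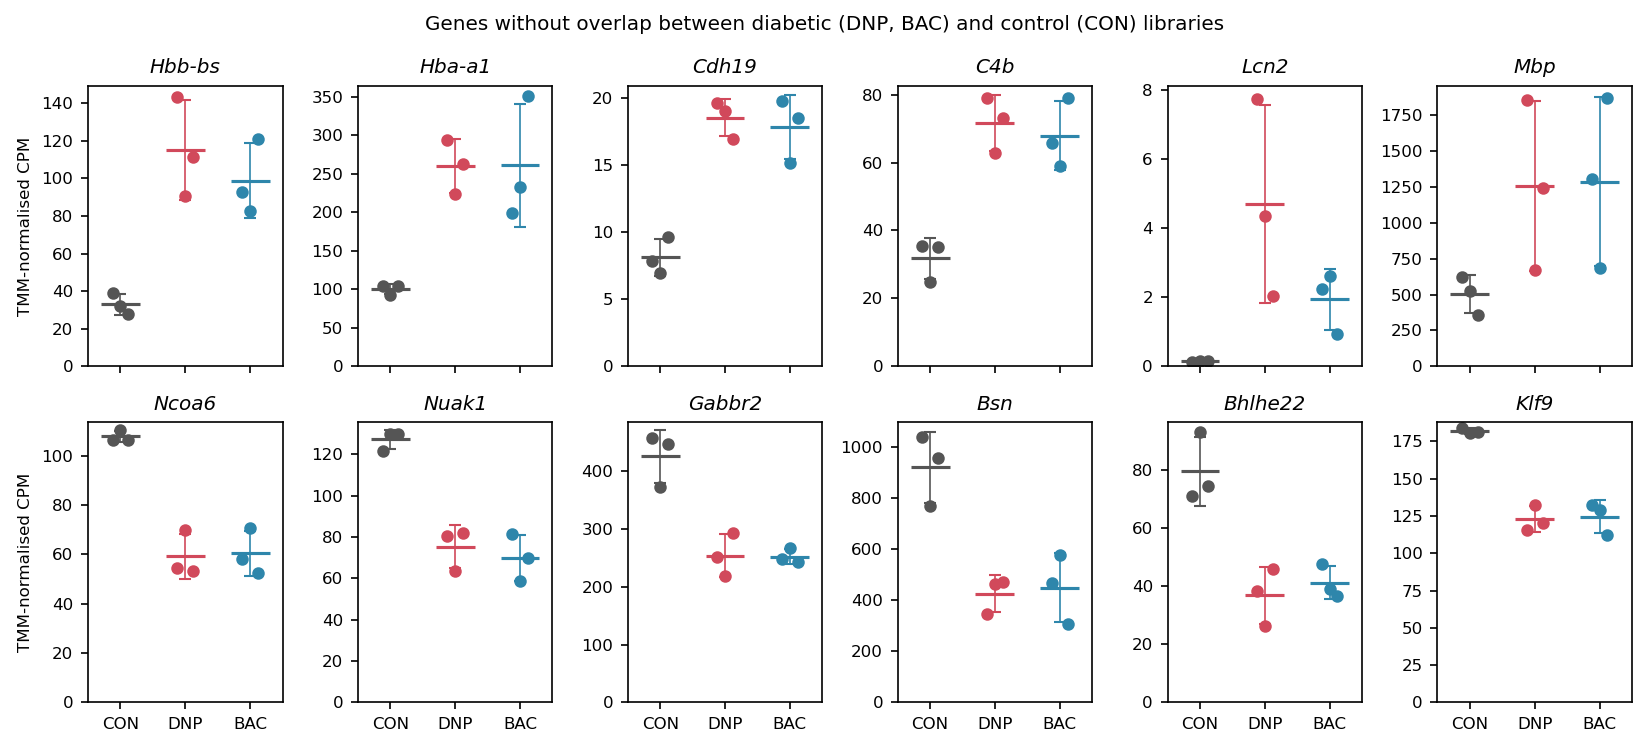
TMM-normalised CPM of 12 genes in each library (points), by group, with the mean (line) and SD (bar) of the 3 libraries. The upper row holds genes with every diabetic library above every control, such as Hbb-bs at 82.7 to 143 CPM against 28.0 to 39.1 CPM, and the lower row genes with every diabetic library below every control, such as Ncoa6 at 52.7 to 70.6 CPM against 106 to 111 CPM.

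Cdh19 and C4b were also among the 12 higher genes with the smallest p. Cdh19, a cadherin known from the glia of peripheral nerve, was at 7.83, 6.91 and 9.62 CPM in CON and at 15.1 to 19.8 CPM in the diabetic libraries (median 18.8 CPM). C4b, the complement component that labels material for removal, was at 35.4, 24.9 and 35.2 CPM in CON and at 59.0 to 79.0 CPM in the diabetic libraries (median 69.5 CPM). Both sets of 6 libraries were tightly grouped and clear of the controls. The log2 fold change was 1.16 ± 0.16 (SE) for Cdh19 and 1.13 ± 0.16 for C4b, each with an adjusted p of 0.103 in edgeR. DESeq2 gave 1.8e-08 and 1.5e-07.

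Lcn2, the iron-siderophore binding protein lipocalin-2, had 2 counts in each control library and 286 counts over the 6 diabetic libraries. Its level was 0.945 to 7.75 CPM in the diabetic libraries, highest in DNP replicate 1 and lowest in BAC replicate 3, against 0.133 to 0.143 CPM in CON. Per total count the ratio was 24.4, with a 95% exact interval of 11.1 to 67.1 that covers counting error only. Serpina3g, a serine protease inhibitor induced in inflammation, had a ratio of 6.88 (3.83 to 13.6). Among the calcium-binding proteins of the S100 family with the same pattern were S100a1 and S100a16. S100a1 was at 25.4 to 26.2 CPM against 34.6 to 49.2 CPM, and S100a16 at 16.8 to 23.6 CPM against 30.0 to 58.5 CPM.

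Of the 15 acute-phase and S100 genes tested, 5 were higher without overlap and none lower, beside 3.82% of all genes higher. The log2 fold change was above 0 in all 15 (median 1.11). Their summed level was 531 to 563 CPM in the libraries rich in brainstem markers and 246 to 287 CPM in the other diabetic libraries. CON held 179 to 340 CPM, so the summed level overlapped. In the 6 libraries poor in brainstem markers 6 of 15 were higher without overlap, beside 11.5% of all genes. Complement gave 2 of 18, C4b and the receptor C3ar1. Of 36 interferon response genes 1 separated, the membrane protein Ifitm3, at 5.83 to 8.13 CPM in CON and 10.2 to 14.4 CPM in the diabetic libraries, although 33 of the 36 had a log2 fold change above 0 (median 0.39, all genes 49.7% above 0). Of 24 NF-kB subunits, inhibitors and targets, Cd86 and the inhibitor Nfkbia separated, and the median of the list was -0.03. Microglial markers gave 3 of 18, the surface protein Cd52, the immunoglobulin receptor chain Fcer1g and the lysosomal protease Ctss, with a median of 0.42. That median was -0.12 with scores of cerebellar and brainstem markers in the fit. In the 6 libraries poor in brainstem markers, 12 of the 18 microglial markers were higher without overlap, beside 11.5% of all genes. Astrocyte markers gave 1 of 17, and the 3.82% of all genes that were higher is the background for each of these lists.

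Of 30 NRF2 targets and antioxidant enzymes, 6 lay above the controls and none below (median log2 fold change 0.27), beside 3.82% of all genes above. Once the length trend was removed 3 lay above, beside 2.97% of all genes. Gpx3, the secreted glutathione peroxidase, was at 4.14 to 4.58 CPM in CON and at 9.33 to 41.4 CPM in the diabetic libraries (median 18.9 CPM). Its 3 highest values, 34.8, 24.0 and 41.4 CPM, came from the libraries rich in brainstem markers, and without them its log2 fold change was 1.46 rather than 2.37 ± 0.51 (SE). Fth1, the heavy chain of the iron store ferritin, was at 1059 to 1527 CPM in CON and 1655 to 3578 CPM in the diabetic libraries, and it overlapped once the length trend was removed. Sod1 and Txn1, a superoxide dismutase and a thioredoxin, were also among the 6.

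Of 23 glucocorticoid response genes, 6 lay above and 1 below the controls (median 0.50), beside 3.82% and 3.13% of all genes. Mt1, a metallothionein that binds zinc and copper, was at 108 to 154 CPM in CON and 191 to 266 CPM in the diabetic libraries. Hif3a, a hypoxia-inducible factor subunit also induced by glucocorticoids, was at 6.91 to 8.92 CPM against 11.8 to 21.4 CPM. The lower gene was Klf9, a transcription factor induced by glucocorticoids and thyroid hormone, at 184, 181 and 181 CPM in CON and 112 to 133 CPM in the diabetic libraries. Its 3 controls were nearly equal and all 6 diabetic values were lower, with a log2 fold change of -0.56 ± 0.10 (SE, edgeR adjusted p 0.223, DESeq2 7e-07). Members of this list therefore lay on both sides. Arrdc2, Plin4, Nfkbia and Lcn2 complete the higher members.

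Among the gene lists, cytoplasmic ribosomal proteins and nuclear respiratory chain subunits, the 2 longest lists, gave the most higher genes, each with a small difference. Of 79 cytoplasmic ribosomal proteins, 26 lay above the controls and none below, beside 3.82% of all genes above. Their median log2 fold change was 0.42, with 77 of 79 above 0. Rpl7, of the large subunit, was at 142, 145 and 138 CPM in CON and 187 to 214 CPM in the diabetic libraries. Its log2 fold change was 0.48 ± 0.10 (SE), with an adjusted p of 0.25 in edgeR. Outside that list, the ribosomal protein paralog Rpl22l1 (23.2 to 24.4 CPM against 32.0 to 43.6 CPM) and Tpt1, the translationally controlled tumor protein (34.8 to 38.6 CPM against 48.5 to 59.5 CPM), were among the 12 higher genes with the smallest p. BAC replicate 1 or BAC replicate 2 held the lowest diabetic value for each of these 3 genes.

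Nuclear subunits of the respiratory chain gave 29 of 73 above and none below the controls, beside 3.82% of all genes above. All 73 had a log2 fold change above 0 (median 0.35). Ndufa2, of complex I, was at 40.7 to 45.7 CPM in CON and 51.7 to 67.8 CPM in the diabetic libraries, and Cox6c, of complex IV, at 59.1 to 67.9 CPM against 73.4 to 98.2 CPM. Of the 13 mRNAs encoded by mitochondrial DNA, 9 lay above (median 0.36). The largest difference among those named, of mt-Co3, was between 1909 to 2455 CPM and 2809 to 3577 CPM. Proteasome subunits gave 11 of 35 above and none below (median 0.21). No gene of endoplasmic reticulum stress and heat shock (28 tested), fatty acid oxidation and ketone use (27) or cholesterol synthesis (22) separated.

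Levels of myelin and oligodendrocyte genes were uneven among the diabetic libraries. Mbp, myelin basic protein, was at 623, 527 and 361 CPM in CON and ranged from 672 CPM (DNP replicate 2) to 1869 CPM (BAC replicate 3) in the diabetic libraries. DNP replicate 2 and BAC replicate 2 lay close to the controls, whereas the 3 libraries rich in brainstem markers were at 1308 CPM or more. Without those 3 the log2 fold change was 0.79, against 1.34 ± 0.39 (SE) with them. Mal, a myelin membrane protein, separated by 156 CPM against 157 CPM in the nearest libraries. The transcription factors Olig1 and Olig2, which set the oligodendrocyte lineage, were clearer, Olig1 being at 74.2 to 121 CPM in CON and 149 to 287 CPM in the diabetic libraries. Of 17 myelin markers 3 separated, beside 3.82% of all genes higher, and all 17 had a log2 fold change above 0 (median 1.12).

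Some higher genes varied widely among the diabetic libraries. Gal, the neuropeptide galanin, had 1 count over the 3 controls and 337 over the diabetic libraries, a ratio of 173 (30.8 to 6840). Ddc and Slc18a2, the enzyme and the vesicular transporter of monoamine neurons, were at 4.21 to 5.97 CPM and 3.49 to 4.78 CPM in CON, and their diabetic values ran from 7.73 to 79.4 CPM and from 5.91 to 94.6 CPM. The highest values of both were in BAC replicate 3 and DNP replicate 1. Gabrq, a GABA-A receptor subunit of hypothalamus and brainstem, was at 18.5, 13.4 and 23.1 CPM in the libraries rich in brainstem markers and at 1.90 to 3.52 CPM in the other diabetic libraries, against 0 to 1.19 CPM in CON. Scn9a, a voltage-gated sodium channel of sensory neurons, was at 3.09 to 4.18 CPM in CON, and its log2 fold change was 1.78 ± 0.46 (SE) with all libraries and 0.99 without those 3. Omp, the marker of olfactory sensory neurons, was at 38.8 CPM in DNP replicate 2 and at 1.05 to 2.83 CPM in the other diabetic libraries. Adamts19, a secreted metalloprotease, had a ratio of 27.2 (14.7 to 57.1) and was also highest in DNP replicate 2, at 18.2 CPM.

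Among the lower genes with the smallest p were a nuclear coactivator, a phosphatase and a kinase. Ncoa6, a coactivator of nuclear receptors, was at 106, 111 and 107 CPM in CON and 52.7 to 70.6 CPM in the diabetic libraries (median 56.2 CPM), and had one of the 4 widest gaps on the lower side. Ppm1l, a protein phosphatase that restrains stress kinase signalling, was at 222 to 239 CPM against 127 to 166 CPM. Nuak1, a kinase of the AMPK family needed for axon branching, was at 122, 130 and 130 CPM against 58.6 to 82.1 CPM. The controls of all 3 genes were close to each other and no diabetic library reached them. Log2 fold changes were -0.85 ± 0.13, -0.73 ± 0.11 and -0.81 ± 0.13 (SE), with adjusted p of 0.132, 0.147 and 0.215 in edgeR.

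The transcription factor Bhlhe22 was at 71.3, 93.3 and 74.7 CPM in CON and 26.4 to 47.7 CPM in the diabetic libraries, a log2 fold change of -1.03 ± 0.18 (SE). Neurod2, 1 of 20 cortex and hippocampus markers without overlap, was at 119 to 213 CPM against 43.8 to 104 CPM. Its control values were highest in CON replicate 2. There the summed markers of cortex and hippocampus were lowest among the controls and those of the cerebellum highest (13405 CPM). The part of region content in this was not tested. The corepressor Cbfa2t3 was at 37.7 to 66.7 CPM against 12.3 to 27.8 CPM, and the octamer-binding factor Pou2f2 at 15.9 to 17.7 CPM against 3.97 to 10.9 CPM. Plxna1, Spred2 and Spata2, a semaphorin receptor, an inhibitor of growth factor signalling and an adaptor of deubiquitination, had log2 fold changes of -0.65 ± 0.12, -0.65 ± 0.12 and -0.64 ± 0.12 (SE).

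Of the synaptic lists, most members overlapped, and those that did not were mainly lower, beside 3.13% of all genes. The presynaptic scaffold Bsn (bassoon) was at 1038, 767 and 956 CPM in CON and 307 to 576 CPM in the diabetic libraries (median 465 CPM), a log2 fold change of -1.07 ± 0.20 (SE, edgeR adjusted p 0.223). Rims1, which tethers calcium channels at release sites, was at 189 to 309 CPM against 84.0 to 178 CPM. These were the 2 of 12 active zone genes without overlap, and all 12 had a log2 fold change below 0 (median -0.65). The summed level of the 12 was 1482 to 1933 CPM in the libraries rich in brainstem markers. In the other diabetic libraries it was 2181 to 2431 CPM, against 2864 to 3584 CPM in CON. Of 34 glutamate receptor and postsynaptic genes, Gria1, Shank2 and Shank3 lay below and Grin2d above, with 31 of 34 below 0 (median -0.50). The summed level of this list was 4474 to 5458 CPM in the libraries rich in brainstem markers. It was 8327.5 to 10594 CPM in the other diabetic libraries, against 8314 to 12348 CPM in CON. What region content contributes to the levels of the active zone and glutamate lists was not tested. None of 20 vesicle and SNARE genes separated (median -0.13).

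Of the subunits of the receptor that baclofen activates, only Gabbr2, the GABA-B subunit that couples to G proteins, was without overlap. The libraries overlapped for the other subunit, Gabbr1, which had a log2 fold change of -0.21. Gabbr2 was at 457, 373 and 448 CPM in CON, 252, 218 and 293 CPM in DNP and 249, 267 and 242 CPM in BAC. All 6 diabetic values were below the lowest control, and DNP and BAC overlapped. The log2 fold change was -0.75 ± 0.12 (SE) with an adjusted p of 0.223 in edgeR and 2.1e-06 in DESeq2. Kcnj3 and Kcnj9, subunits of the potassium channels that this receptor opens, were at 40.9 to 50.4 CPM against 23.4 to 32.3 CPM and at 205 to 221 CPM against 76.3 to 194 CPM. With Gabbr2 they were 3 of the 10 genes of that list, against 3.13% of all genes (median -0.62).

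Among GABA-A receptor subunits, Gabrb2 lay below the controls and Gabrq, described above, lay above them. Gabrb2 was at 146, 170 and 157 CPM in CON and 44.4 to 125 CPM in the diabetic libraries. For Gabrb2 the DNP libraries (79.8, 51.6 and 44.4 CPM) lay below the BAC libraries (125, 84.6 and 99.6 CPM), a difference that edgeR did not call (adjusted p 0.998). Among genes of GABA synthesis, transport and chloride, 2 of 13 were lower without overlap, beside 3.13% of all genes. They were Wnk2, a kinase that regulates chloride transporters, and Slc12a5, the neuronal potassium-chloride cotransporter KCC2. Slc12a5 was at 498 to 569 CPM in CON and 302 to 459 CPM in the diabetic libraries, and it overlapped once the length trend was removed.

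Of 26 sodium and calcium channel genes, Scn2a, Scn2b, Scn8a and Cacna1i were lower and Scn9a higher (median -0.40), and of 33 potassium channels only Kcnma1 separated, in the lower direction (median -0.37). Scn2b, an accessory subunit, was at 297 to 369 CPM against 176 to 242 CPM. Adhesion genes gave 4 of 31, all lower, the synaptic adhesion protein Lrrc4 among them (median -0.33). Insulin signalling gave 5 of 29, all lower, the kinase Akt2 and the binding protein Igfbp5 among them (median -0.23). Over all genes 3.13% were lower and 3.82% higher, the background for each of these lists. Akt2 was at 55.8 CPM or more in CON and 48.3 CPM or less in the diabetic libraries, and Igfbp5 at 183 to 220 CPM against 129 to 156 CPM.

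Immediate early genes, which respond to neuronal activity, and clock genes gave few members without overlap. All 22 immediate early genes had a log2 fold change below 0 (median -0.89). Their summed level overlapped between the groups (1042 to 2605 CPM in CON and 512 to 1975 CPM in the diabetic libraries). It was 512 to 818 CPM in the libraries rich in brainstem markers and 1392 to 1975 CPM in the other diabetic libraries. What region content contributes to this was not tested. Only Dusp1, a phosphatase of MAP kinases, was without overlap (55.5 to 78.5 CPM against 23.7 to 42.6 CPM). Of 18 clock genes, Nr1d1 (213 to 245 CPM against 102 to 173 CPM), Arntl and Tef separated, all lower, beside 3.13% of all genes. Of the 18, 17 were below 0 (median -0.39). The hour at which brains were collected is not given in the sources used here, and its part was not tested.

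**Figure D3:**
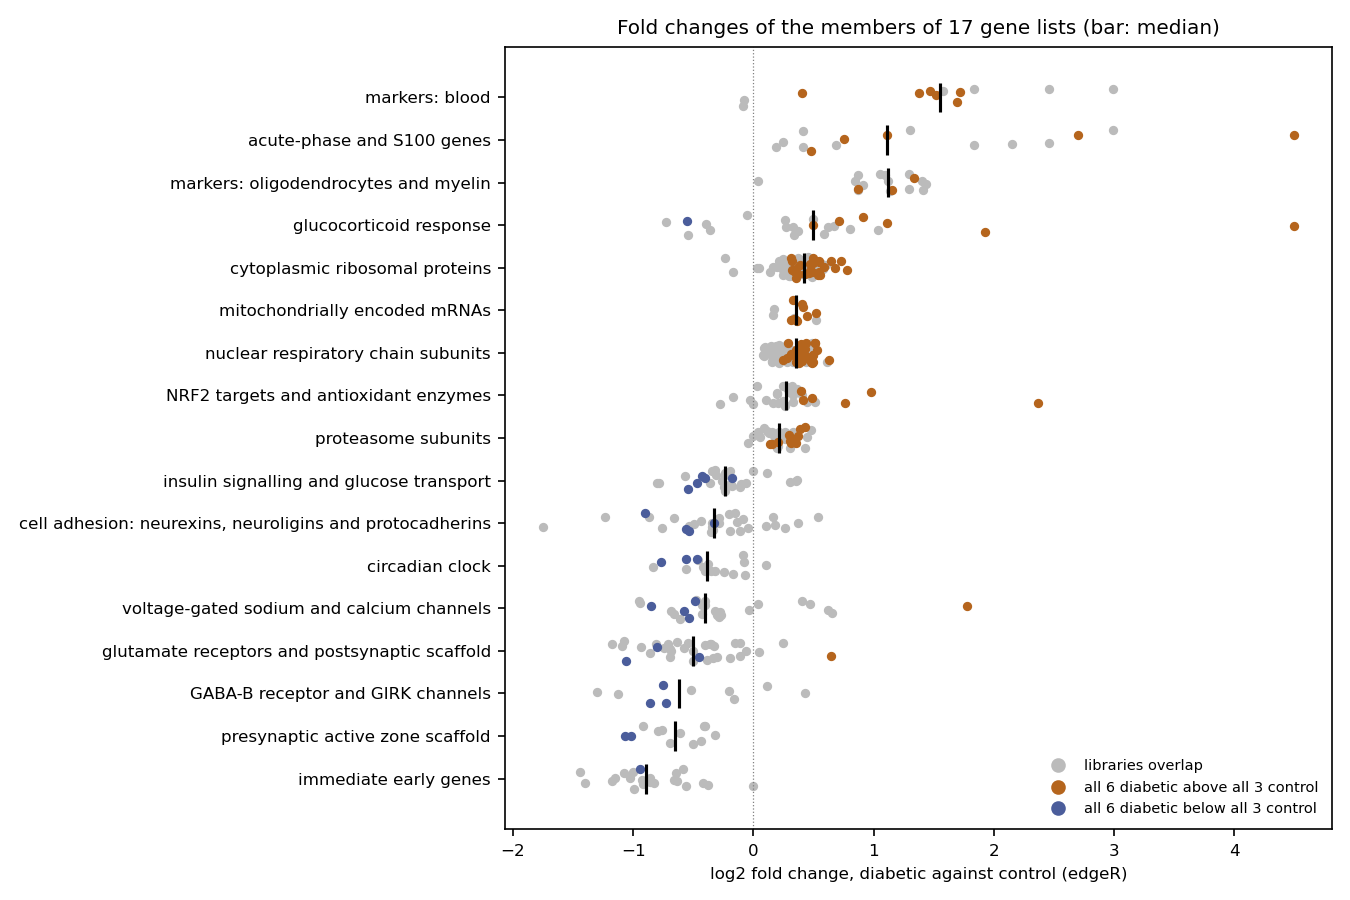
Log2 fold change of diabetic against control libraries (edgeR, horizontal axis) for each tested member of 17 gene lists (rows), with brown and blue points for genes without overlap and a bar at the median. Among these 17 lists, medians run from 1.55 for blood markers to -0.89 for immediate early genes. The lists of brainstem and spinal cord markers (median 8.02) and cerebellar markers (median -1.41) are not shown. Ribosomal, respiratory chain and proteasome members without overlap all lie on the higher side.

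Beyond their functions, the genes without overlap shared a property that the rule did not use, the length of the gene model (bases of annotated exon implied by the deposited FPKM). Its mean was 3848 bases for the higher genes, 10174 bases for the lower genes and 6484 bases for the rest. In the shortest decile of tested genes 8.7% were higher and 1.19% lower, and in the longest decile 0.757% were higher and 7.84% lower. The median log2 fold change passed from 0.142 to -0.179 between these deciles. Pseudogenes made up 82 of the higher genes (11.6%) and 17 of the lower genes (2.94%), beside 6.47% of all genes tested.

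The same trend was seen in single libraries. The median log2 deviation of the shortest decile from the mean of the 9 libraries, less that of the longest decile, was -0.199, -0.308 and -0.131 in CON. It was 0.181, 0.143 and 0.266 in DNP and -0.112, 0.0862 and 0.141 in BAC. BAC replicate 1 was on the control side of 0, but all 6 diabetic values were above all 3 controls. RNA integrity is not given in the sources used here, and what it contributes was not tested. With the trend removed in each library, 550 genes were higher and 539 lower, of which 491 and 413 were among the 706 and 579.

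Counts within the lists changed unequally under that setting, where 2.97% of all genes were higher and 2.91% lower. Ribosomal proteins without overlap went from 26 to 22, respiratory chain subunits from 29 to 18, mitochondrially encoded mRNAs from 9 to 2, proteasome subunits from 11 to 4, antioxidant genes from 6 to 3, insulin signalling genes from 5 to 2, adhesion genes from 4 to 2 and sodium and calcium channels on the lower side from 4 to 1. The counts were again 2 for active zone genes, 3 for the GABA-B and potassium channel list and 6 for blood markers. Hbb-bs, Cdh19, C4b, Lcn2, Ncoa6, Nuak1, Gabbr2, Bsn, Bhlhe22 and Klf9 were all without overlap there too.

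**Figure D4:**
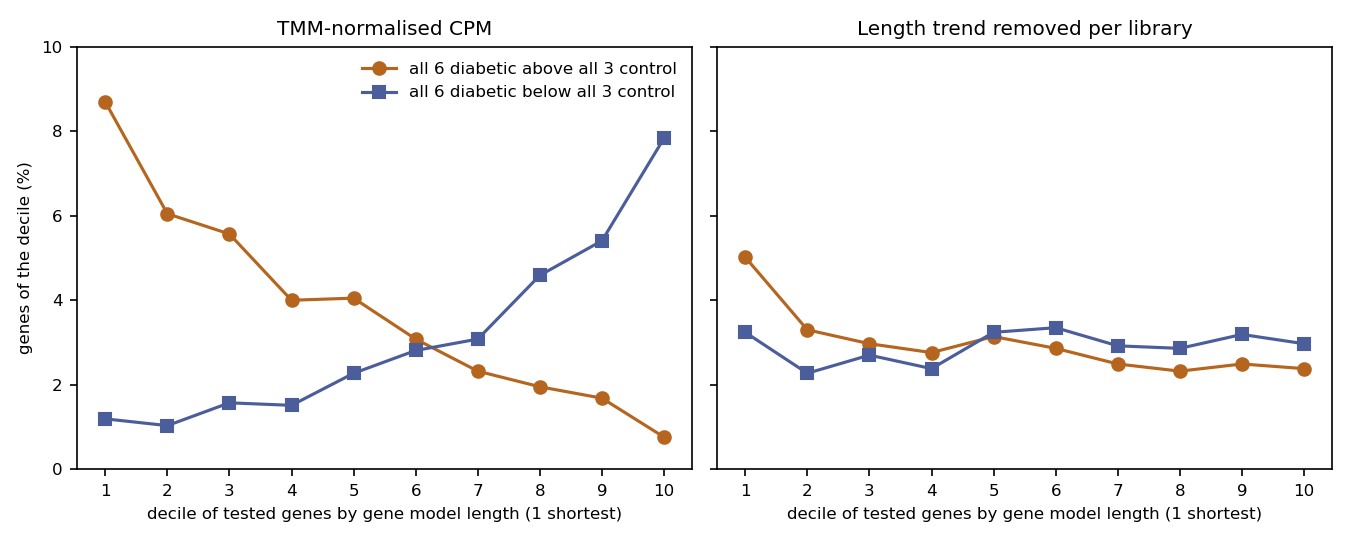
Share of genes (%) with all 6 diabetic libraries above (circles) or below (squares) all 3 controls, by decile of gene model length, before (left) and after (right) the length trend was removed from each library. Before, the higher share falls from 8.7% to 0.757% and the lower share rises from 1.19% to 7.84%, and after, the higher share lies between 2.32% and 5.02% and the lower share between 2.27% and 3.35%.

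The 6 diabetic libraries were not equally far from the controls. BAC replicate 1 was the nearest diabetic library for 30.5% of the higher and 33.5% of the lower genes, and BAC replicate 2 for 27.2% and 22.6%. DNP replicate 1 was the nearest for 2.83% and 6.91%. Between BAC and DNP, edgeR called no gene (0%) at an adjusted p under 0.05, 438 genes (2.37%) had an unadjusted p under 0.05, and DESeq2 called 7. Among the higher genes the BAC mean was below the DNP mean for 454 of 706 (64.3%), and among the lower genes it was above it for 367 of 579 (63.4%), where over all genes BAC was below DNP for 51.9% and above it for 48.1%. Of the higher genes 13 (1.84%) and of the lower genes 24 (4.15%) had an unadjusted p under 0.05 in that contrast. The libraries rich in brainstem or cerebellar markers are spread unequally over DNP and BAC, and their part in this was not tested.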

How the data were processed

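Whole-brain poly(A) RNA of 9 mice was sequenced in non-strand-specific paired-end libraries, and groups were taken from the sample labels. Per the labels, the authors checked reads with FastQC 0.11.9, filtered them with fastp, and used Bowtie2 2.3.4.1, HISAT2 2.1.0 and StringTie 1.3.3b with GRCm38. One deposited table gives the raw counts without normalization. The second table the authors deposited holds FPKM, each value being the count over a gene length and the library total, without a TMM factor. How reads shared by several genes were counted is not given in the sources used here.

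Low genes were dropped with filterByExpr (minimum count 10; edgeR 4.0.16, R 4.3.3), and the rest were normalised by TMM, and tested with edgeR's quasi-likelihood test, diabetic against control over all 9 libraries, with Benjamini-Hochberg adjustment at 0.05. BAC and DNP were compared in a fit with 3 groups. A gene had no overlap when all 6 diabetic CPM values lay on one side of all 3 controls. DESeq2 1.42.0, limma 3.58.1 on log2 FPKM, other scalings and filters, a replicate block and left-out libraries were alternatives, and scripts were tested on simulated data. The length trend was a lowess (span 0.3) of each library's log2 deviation on log10 length, added after the data were seen. P-values rest on the spread between biological replicates, of which the study had 3 per group. In the main fit DNP and BAC were pooled as 6 diabetic libraries, so any difference between them adds to that spread. With the 3 groups kept apart and the mean of DNP and BAC set against CON, edgeR called 0 genes. The smallest adjusted p was then 0.209. Depth was 13107382 to 16008129 counts per library, and the biological coefficient of variation was 36%.

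The members and the 44 gene lists were chosen with earlier results of these data known. Genes named are, among those without overlap whose mean is 1 CPM or more, the 12 with the smallest p and the 4 with the widest gap in each direction and up to 4 members of each list, and further list members where few separated. Predicted genes and pseudogenes are counted and not named, and some genes that this rule names are not reported here.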

Additional observations from a re-analysis of the deposited data

Results flagged for a closer look

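Among the 6 diabetic libraries, 147 groups of values (103 genes and 44 lists) were checked for a library far from the others by Dixon's criterion (gap to the nearest over the whole range), which chance meets in about 1 in 20 groups, and 7 met it. DNP replicate 2 held 38.84 CPM of Omp, an olfactory sensory neuron gene, and DNP replicate 1 held 132.8 CPM of the astrocyte gene Ntsr2. BAC replicate 1 stood at 166.1 CPM for Ppm1l and 27.53 CPM for Rpl36, in both cases toward the controls, and DNP replicate 2 at 100.01 CPM for Spred2, also toward them. The summed glucocorticoid response list was 1502 CPM in DNP replicate 1, and the summed cerebellar list 6656 CPM in BAC replicate 1.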

How the results depend on the processing

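The count of genes called by edgeR, 0, was also 0 under the other scalings and filters, with marker scores as covariates and with the length trend removed. It was 426 with DESeq2, 3 with limma on log2(FPKM + 0.1), 1 without the 2 libraries richest in cerebellar markers, and 0 to 2 with single libraries left out (2 without CON replicate 2, 1 without CON replicate 3, 1 without BAC replicate 2). Same-numbered libraries correlated between -0.579 and 0.56, and libraries with different numbers between -0.701 and 0.614. No pairing by number was seen, but region content also differs between libraries, so these correlations cannot exclude it. With a replicate block 0 genes were called and 1993 had an unadjusted p under 0.05 in edgeR. BAC against DNP gave 0 called genes with the replicate block and 7 with DESeq2. Genes without overlap (706 higher, 579 lower, 1285 in all) numbered 142, 55 and 197 with a gap of at least 1.2-fold. They numbered 2039, 1979 and 4018 without the 3 libraries rich in brainstem markers, and 1993, 2065 and 4058 without the 2 rich in cerebellar markers. Lower genes were 349 on library totals and 350 in FPKM. Leaving out single libraries gave 739 to 1474 higher, 610 to 1710 lower and 1349 to 3184 in all, and fewer libraries raise these counts by construction. Without CON replicate 2, 46.3% were higher instead of 54.9%. Without CON replicate 1 the counts were 1297 and 1031, without CON replicate 3 1096 higher, and without BAC replicate 1 1049 and 1015. Of 2364 values for the 103 named genes under alternatives, 4 changed sign, all with cerebellum and brainstem scores as covariates: Col11a1 (-0.0444), Rbfox3 (0.0598), Slc18a2 (-0.313) and C3ar1 (-0.184). The cause was not tested. With 3 controls, depth limits genes under about 1 CPM most.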

Other observations

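Among cell type lists whose counts are not given above, most separated little. Of 20 markers of thalamus, hypothalamus and midbrain 3 were higher without overlap, Slc18a2, Gal and Ddc (median log2 fold change 1.46). Of 10 markers of oligodendrocyte precursors 2 were, Olig1 and Olig2 (median 0.25), beside 3.82% of all genes. None of the 18 meningeal, 17 choroid plexus, 13 striatal or 4 pituitary markers tested was without overlap, and of 19 endothelial markers only Mfsd2a, the lipid transporter of the blood-brain barrier, was (11.3 to 14.1 CPM in CON against 15.2 to 38.0 CPM). Of 13 neuronal markers only Rbfox3 (NeuN) was, at 341 to 468 CPM against 174 to 312 CPM, while the median log2 fold change of that list was 0.15. Of 31 collagen and matrix genes, Col11a1 and Col6a3 were higher and Lamc1 and Hspg2 lower. Among non-coding RNAs 1 of 12 separated, Gas5, and among histones 1 of 11, Hist1h2bc.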
